A study of Homo sapiens with 2 samples.

Results

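The genes described are 7 genes of the sodium pump and of its FXYD regulators: the beta subunit genes ATP1B1, ATP1B2 and ATP1B3, and the regulator genes FXYD2, FXYD5, FXYD6 and FXYD7. They were taken by symbol from expression tables of 53737 genes, and all 7 were found. The tables came from the bone-derived cell line SK-ES-1, an established line of Ewing sarcoma labelled wild type, with 1 library of slow-cycling cells (SCCs) and 1 library of non-slow-cycling cells (non-SCCs). No treatment, time or other allele is labelled for either group, and how the slow-cycling cells were separated is not given in the sources used here. The column headers write LRC for the SCC library and non-LRC for the other, without spelling either out. The 7 genes were chosen as a family in which differences between these libraries were already known, so their levels and ratios are a description with no test, and with 1 library per group no difference has a replicate check.

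The sodium pump, Na,K-ATPase, uses ATP to carry sodium out of the cell and potassium in, which sets the ion gradients that transporters, cell volume and membrane potential depend on. Its catalytic subunit binds the ions and splits ATP. Its glycosylated beta subunit, made from the ATP1B genes, brings the catalytic subunit to the cell surface and also takes part in adhesion between cells. FXYD proteins are small proteins that cross the membrane once, sit beside the catalytic subunit and tune the pump's affinity for ions or its turnover. FXYD5, also called dysadherin, has a long extracellular part and is known from carcinomas, where it is linked to weaker cell adhesion. FXYD2 is the gamma subunit of the kidney pump, FXYD7 is a brain regulator, and FXYD6, or phosphohippolin, is found in the nervous system and inner ear.

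The FXYD family takes its name from a short motif just outside the membrane, which is the feature that makes these 4 genes comparable. The coding stretches around it are shown here for the 4 FXYD members, 75 bases each, read from GENCODE release 29 transcripts with the 15 bases of the motif in capitals.

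FXYD2: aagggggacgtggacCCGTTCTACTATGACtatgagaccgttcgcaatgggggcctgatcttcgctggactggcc
FXYD5: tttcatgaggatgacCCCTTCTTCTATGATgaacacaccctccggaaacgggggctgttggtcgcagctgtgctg
FXYD6: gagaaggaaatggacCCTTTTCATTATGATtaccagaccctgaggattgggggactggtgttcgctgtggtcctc
FXYD7: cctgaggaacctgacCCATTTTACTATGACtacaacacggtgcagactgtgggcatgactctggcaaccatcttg

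Over these 75 bases FXYD5 shared 45 bases with FXYD6, 43 with FXYD2 and 41 with FXYD7, and the closest pair was FXYD2 and FXYD6 with 49. The coding sequences also differ in length before the motif. FXYD5 has 178 codons, of which 133 come before the motif. FXYD6 has 95 codons with 28 before it, FXYD7 has 80 with 16, and FXYD2 has 66 with 17.

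Among the regulators, FXYD5 and FXYD6 were higher in the SCC library, while FXYD2 and FXYD7 were listed at 0 in both. FXYD5 (gene ID 53827) lies on the plus strand of chromosome 19 (35154735 to 35169881, GRCh38). Its level was 7.12 per-million units in the SCC library and 1.12 in the non-SCC library, where a per-million unit is 2 raised to the deposited log2 value, minus 1. The SCC level was 6.38 times the other. In each pair of levels below, the SCC library comes first. On the log2(value + 1) scale, which understates differences of low genes, the ratio of SCC to non-SCC was 1.94. In bulk samples such as these, fewer cells that express a gene and less RNA per cell cannot be told apart.

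FXYD6 (gene ID 53826), on the minus strand of chromosome 11 (117836981 to 117877430), was at 4.59 units in the SCC and 0.772 in the non-SCC library. The linear ratio was 5.94 and the log2 ratio 1.66. Both FXYD5 and FXYD6 were thus low in the non-SCC library and above 4 units in the other. FXYD6 shares 39678 bases with FXYD6-FXYD2, an annotated read-through model that joins it to its neighbour FXYD2, so the split of the region's reads between the models is uncertain. The read-through model was at 0.605 units in the SCC library and 0 in the other. With its value added to that of FXYD6, an alternative chosen after the data were seen, the levels were 5.19 and 0.772 and the log2 ratio was 1.81. FXYD6 also overlaps the non-coding RNA gene FXYD6-AS1 over 1339 bases, and that gene has no value in either library. Whether counting used strand is not given, so reads of that overlap cannot be assigned with certainty.

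FXYD2 (gene ID 486), on chromosome 11 (117820057 to 117828089), and FXYD7 (gene ID 53822), on chromosome 19 (35143255 to 35154302), had the value 0 in both libraries. An exact 0 may not mean that a gene is silent here. All 13 protein-coding genes of mitochondrial DNA were listed at 0 in both libraries as well, for a reason that is not given. Whether the values of FXYD2 and FXYD7 have the same source was not tested. No ratio is therefore given for FXYD2 and FXYD7. FXYD2 also shares 8033 bases with the read-through model FXYD6-FXYD2, so the split of reads between these models is uncertain.

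**Figure D1:**
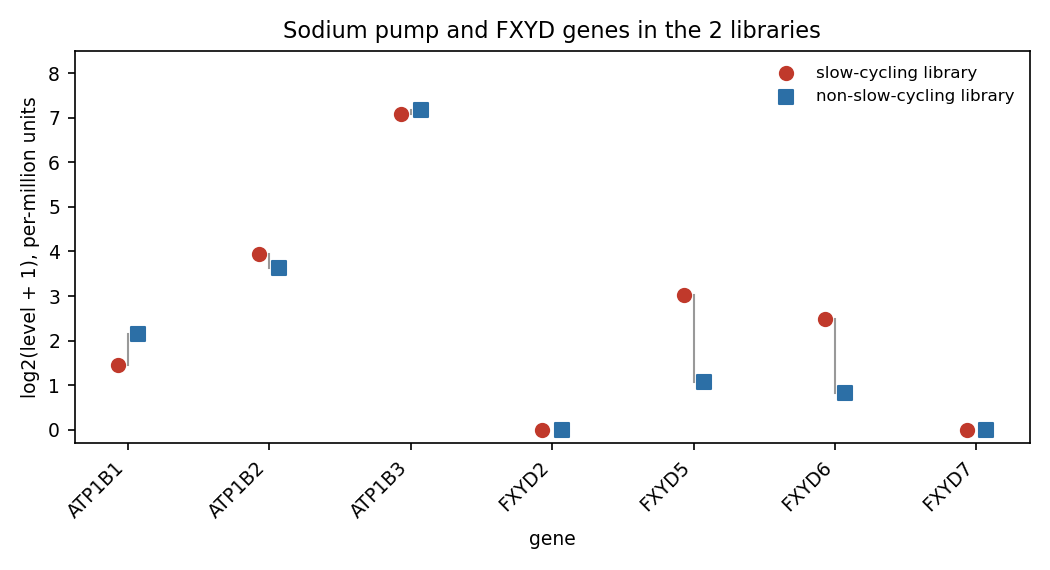
Level of the 7 members on the log2(level + 1) scale, with a circle for the SCC and a square for the non-SCC library and 1 library per group. FXYD5 and FXYD6 have the widest gaps, with log2 ratios of 1.94 and 1.66, and FXYD2 and FXYD7 lie at 0 in both.

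The 3 beta subunit genes went different ways. ATP1B1 (gene ID 481), the beta subunit of most tissues, lies on the plus strand of chromosome 1 (169106690 to 169132719) and was lower in the SCC library, at 1.76 units against 3.42 in the other. Its level in the non-SCC library was 1.94 times that in the SCC library, and its log2 ratio was -0.68. The last 189 bases of ATP1B1 overlap NME7, a gene on the opposite strand that was at 37.9 and 35.7 units. Whether the authors' counting used strand is not given in the sources used here, so reads of this overlap cannot be assigned to either gene with certainty.

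ATP1B2 (gene ID 482), a beta subunit of nerve and glial cells that acts as an adhesion molecule, lies on chromosome 17 (7646627 to 7657770). It was at 14.5 units in the SCC and 11.3 in the non-SCC library, a log2 ratio of 0.33. ATP1B3 (gene ID 483), a broadly expressed beta subunit on chromosome 3 (141876643 to 141926549), was at 134 and 143 units, a log2 ratio of -0.09. Of the 3 beta genes, then, ATP1B1 was lower and ATP1B2 slightly higher in the SCC library, and ATP1B3 was nearly level.

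Of the 7 members, 5 had at least 1 unit in at least 1 library and entered the comparison. FXYD2 and FXYD7 did not. Of these 5, 2 were at least 2-fold higher in the SCC library, as were 1.90% of the 13444 genes compared, and none was at least 2-fold lower, as were 0.431% of all. At 1.5-fold, the same 2 were higher, beside 5.38% of all genes, and ATP1B1 was lower, beside 1.41% of all genes. With at least 1 unit required in both libraries FXYD6 did not enter, and 1 member was at least 2-fold higher. The members' median log2 ratio was 0.33 and that of all compared genes 0.03. These counts are a description, since the members were chosen on this contrast, and nothing is read from them.

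Counted from the highest ratio, FXYD5 ranked 27 and FXYD6 ranked 46 of 13444 genes. Among the 11831 protein-coding genes they ranked 12 and 24. Counted from the lowest ratio, ATP1B1 ranked 144 of all genes and 48 of the protein-coding genes. ATP1B2 had 13.3% of genes above it, and ATP1B3 had 26.6% below it.

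The spread of ratios was wide at the low levels where FXYD5, FXYD6 and ATP1B1 lie. Genes with a mean level of 1 to 10 units numbered 3832, and the middle 90% of their log2 ratios ran from -0.46 to 0.88 around a median of 0.14. FXYD5, FXYD6 and ATP1B1, with mean levels of 4.12, 2.68 and 2.59, lay outside that range. The members were chosen on this contrast, so nothing is read from that or from the ranks above. FXYD6 entered the comparison only through its SCC level of 4.59 units, with 0.772 in the non-SCC library. In the class of 1 to 10 units 3.63% of genes were past 2-fold upward and 0.966% downward, and 12.0% and 3.26% were past 1.5-fold. This restriction was added after the data were seen. For the 7673 genes at 10 to 100 units, the class of ATP1B2, the middle 90% ran from -0.28 to 0.35, and ATP1B2 lay inside it. For the 1626 genes at 100 units or more, the class of ATP1B3, it ran from -0.28 to 0.23, and ATP1B3 lay near the class median of -0.08.

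**Figure D2:**
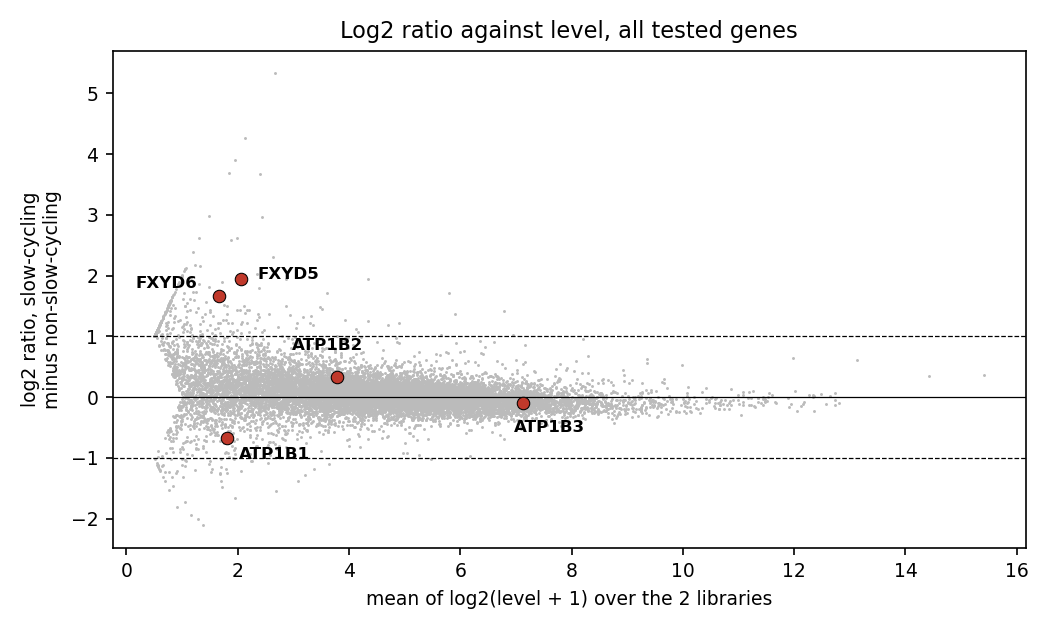
Log2 ratio, SCC minus non-SCC, against the mean log2(level + 1) of both libraries for the 13444 compared genes (grey), with the members in red and dashed lines at 2-fold. FXYD5 and FXYD6 lie above the upper line, ATP1B1 between 0 and the lower line, and ATP1B2 and ATP1B3 near 0.

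Other beta and FXYD genes were at 0. ATP1B4, FXYD1 (phospholemman of heart and muscle), FXYD3 and FXYD4 had the value 0 in each library. Of the related proton pump genes, ATP4A and ATP4B were listed at 0 in both, and ATP12A was at 0.0483 units in the SCC library and 0 in the other. FXYD5 and FXYD6 were the only FXYD genes, of 7, with at least 1 unit in either library.

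FXYD5 stands at the end of a run of FXYD genes on chromosome 19, in the order FXYD3, LGI4, FXYD1, FXYD7 and FXYD5. Only 432 bases separate the end of FXYD7 from the start of FXYD5, yet the other 4 genes of the run were listed at 0 in both libraries. On the far side of FXYD5, FAM187B was listed at 0 in both, and LSR, a lipoprotein receptor, was at 0.885 and 0.955 units. On chromosome 11, DSCAML1, TMPRSS13 and IL10RA beside FXYD2 and FXYD6 were listed at 0 in both, and CEP164, a centriole protein, was at 23.3 and 21.7 units.

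Taking the closest 2 protein-coding genes on each side of each member gave 21 genes other than the members. Of these, 9 had at least 1 unit in either library, with log2 ratios from -0.18 to 0.26. None of the 9 reached 1.5-fold, beside 5.38% of all compared genes higher and 1.41% lower. Another 10 were listed at 0 in both libraries, and LSR and the read-through model made up the rest. Next to ATP1B1, NME7 had a log2 ratio of 0.08 and BLZF1 one of 0.03. Beside ATP1B3, TFDP2, a partner of E2F transcription factors, was at 30.2 and 25.0 units, a log2 ratio of 0.26. No protein-coding neighbour of FXYD5 or FXYD6 itself, other than the members, had the 1 unit needed for a ratio, so the 9 compared genes lie beside the other members.

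**Figure D3:**
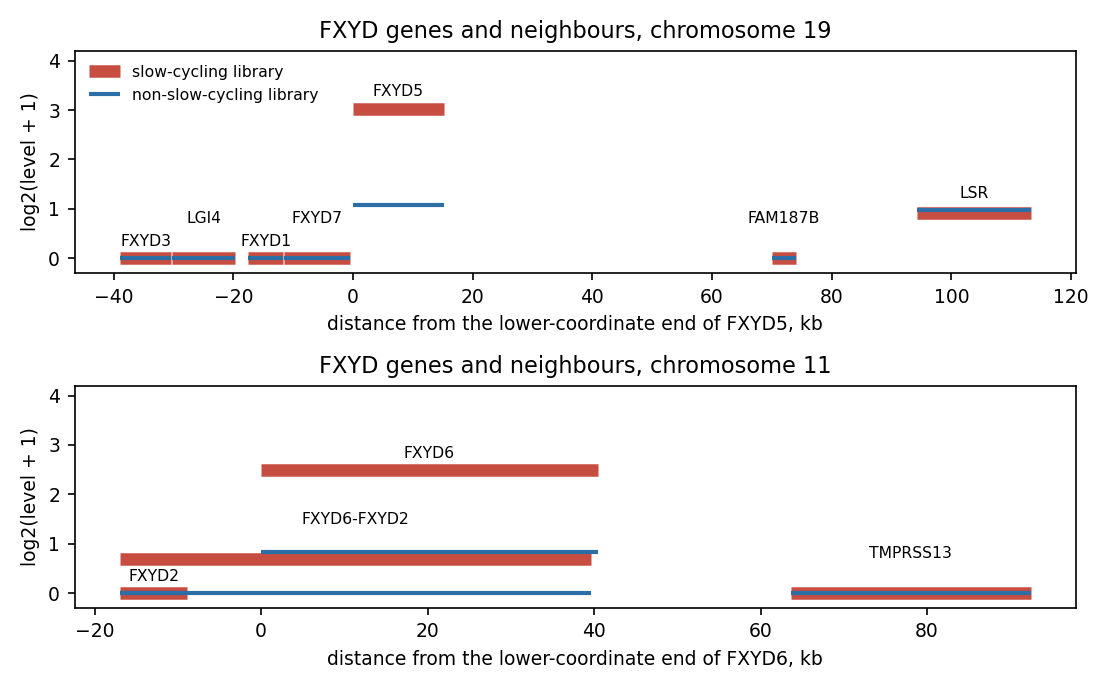
Level, on the log2(level + 1) scale, of the FXYD genes and some neighbours by distance in kb from the lower-coordinate end of FXYD5 (top, chromosome 19) or FXYD6 (bottom, chromosome 11), with each bar as long as its gene, wide and red for the SCC library and narrow and blue for the other. FXYD5 is the only gene of its run above 0, and on chromosome 11 FXYD6 and the read-through model FXYD6-FXYD2 are the genes drawn above 0.

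The wider ion transport machinery was described through 9 lists of genes, which hold 113 genes besides the members. Of these, 65 were listed at 0 in both libraries and 45 could be compared. None passed 2-fold in either direction, beside 1.90% of all compared genes higher and 0.431% lower. At 1.5-fold, 2 were higher, 4.44% of the 45, and none was lower, beside 5.38% and 1.41% of all genes. With a pseudocount of 0.1 in place of 1, which weighs low genes more, 5 were higher and 1 was lower. The share of all genes at that pseudocount was not computed, so nothing is read from this count. With the pseudocount of 1, the median log2 ratio of the 45 genes was 0.10. Of them, 29 were above 0 and 16 below, where 56.2% of all compared genes were above 0.

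Pump partners and regulators had a median log2 ratio of 0.09 over 12 compared genes, 10 of them above 0. ANK2, an ankyrin that anchors the pump to the membrane skeleton, was at 2.08 and 1.23 units, a log2 ratio of 0.46. SGK1, a kinase that raises sodium transport, was at 26.5 and 22.6 (0.22), and AGRN, or agrin, a matrix proteoglycan of the nerve-muscle junction, at 104 and 89.6 (0.21). NKAIN1, which binds the beta subunit ATP1B1, was lower in the SCC library at 11.8 against 14.6 (-0.29). None of the 12 reached 1.5-fold on the log2(value + 1) scale, beside 5.38% of all compared genes higher and 1.41% lower.

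None of the compared sodium-coupled carriers and sodium channels, which bring sodium into the cell, reached 1.5-fold on the log2(value + 1) scale. Of all compared genes, 5.38% were past 1.5-fold upward and 1.41% downward on this scale, which understates differences of low genes. The sodium-coupled carriers had a median of -0.10 over 12 compared genes, 9 of them below 0, with ratios from -0.36 to 0.29. SLC5A6, the sodium-dependent vitamin carrier, was at 108 and 131 units (-0.27). The exchanger SLC9A5 was at 4.63 and 3.62 (0.29), the bicarbonate carrier SLC4A8 at 4.14 and 3.33 (0.25), and the exchanger SLC9A3 at 3.51 and 3.91 (-0.12). Sodium channels had a median of 0.21 over 8 compared genes, 6 of them above 0. The epithelial sodium channel subunit SCNN1G was at 44.2 and 32.4 (0.44), the acid-sensing channels ASIC3 at 3.97 and 3.09 (0.28) and ASIC4 at 1.69 and 2.50 (-0.38), and the voltage-gated channel SCN2A at 2.90 and 2.23 (0.27).

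All 6 compared genes of the potassium chloride carrier and potassium channel lists had ratios above 0, as did 56.2% of all compared genes. All 3 potassium chloride carriers listed were above 0, with a median of 0.18. Among them SLC12A4 was at 6.16 and 5.33 units (0.18) and SLC12A7 at 46.5 and 42.9 (0.11). Of 31 inward rectifier and K2P potassium channels, 28 were listed at 0 in both libraries. The other 3 were above 0, and both genes of these lists that reached 1.5-fold were among them: KCNJ14 at 5.0 and 2.59 (0.74) and KCNJ4 at 8.91 and 5.50 (0.61). With ratios centred on the all-gene median of 0.03, 1 of the 2 stayed past 1.5-fold. Without centring, 5.38% of all compared genes were past 1.5-fold upward. In the class of 1 to 10 units, where KCNJ14 and KCNJ4 lie, the share was 12.0%, so nothing is read from these 2 genes.

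Calcium pumps, relatives of the sodium pump that do not use FXYD proteins, had a median of 0.09 over 7 compared genes, 4 above 0 and 3 below. ATP2B4, a plasma membrane calcium pump, was at 23.8 and 16.8 units (0.48). ATP2A3 was at 6.47 and 5.34 (0.24), the Golgi pump ATP2C1 at 46.6 and 40.4 (0.20) and ATP2B3 at 28.3 and 26.5 (0.09). The small regulators of the calcium pump PLN, SLN, MRLN and STRIT1 were all listed at 0 in both libraries.

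**Figure D4:**
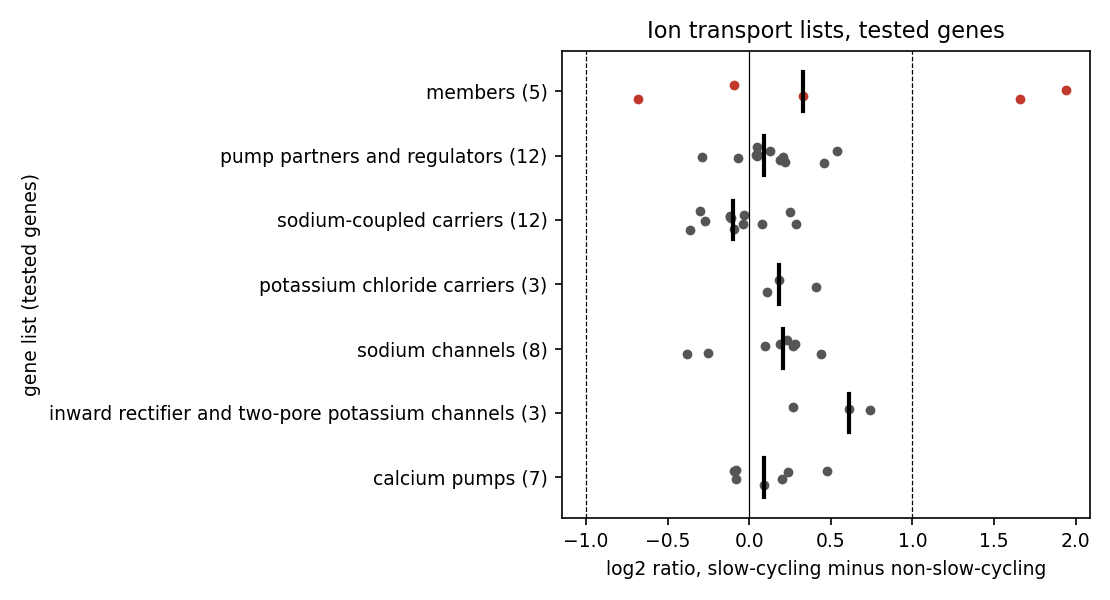
Log2 ratio, SCC minus non-SCC, of each compared gene (points, with vertical jitter) in the members and in 6 ion transport lists, with the number of genes in brackets, the median as a black bar and dashed lines at 2-fold. No listed gene passes 2-fold, beside 1.90% of all compared genes higher and 0.431% lower. The points of the members, which were chosen on this contrast, span -0.68 to 1.94.

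The libraries carried Ewing sarcoma markers at similar summed levels. All 7 markers listed were detected, with summed levels of 1131 units in the SCC and 1147 in the non-SCC library, among them CD99 at 213 and 245. Single markers went both ways, 4 with ratios above 0 and 3 below. They ran from NR0B1 at 95.3 and 118 (-0.30) to LIPI at 117 and 99.4 (0.24). The 14605 and 14196 genes above 0 in the 2 libraries rest on an unknown read depth, because the values keep no counts. Since FXYD6 and ATP1B2 are known from nervous tissue and FXYD2 from kidney, markers of those cells were read beside them. Neuron markers summed to 86.6 and 67.6 units, of which SYT1 gave 65.1 and 50.2, with RBFOX3 and MAP2 listed at 0 in both. The neuron marker STMN2 was at 9.40 and 4.33 units (0.97) and SYP at 4.0 and 5.71 (-0.42), while SNAP25 had a log2 ratio of 0.11. Astroglia markers summed to 21.4 and 23.3, with GFAP, AQP4 and SLC1A2 at 0 in both. All 6 kidney tubule and all 4 endothelial markers were listed at 0 in both libraries.

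Among fibroblast and pericyte markers, all 4 compared genes had ratios above 0, as did 56.2% of all compared genes, and FAP, at 3.67 and 1.74 units (0.77), was the 1 that reached 1.5-fold. The summed level of the 6 markers was 79.1 units in the SCC and 60.4 in the other library, with PDGFRA at 0 in both. The 5 leukocyte markers read summed to 13.2 and 8.94 units, with PTPRC and CD3E at 0 in both. Both of their compared genes were above 0, with LYZ at 8.45 and 6.66 (0.30) and CD68 at 4.36 and 2.28 (0.71), and CD68 reached 1.5-fold. So did the neuron marker STMN2 (0.97). Past 1.5-fold upward were 5.38% of all compared genes and 12.0% of those at 1 to 10 units, the class of FAP, CD68 and STMN2. Epithelial markers summed to 20.2 and 21.2, with KRT19 and CDH1 at 0 in both. CDH1 is E-cadherin, the adhesion protein whose function dysadherin is known to weaken. The part of these markers in the ratios of FXYD5 and FXYD6 was not tested.

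Levels most like those of FXYD5 were sought by the distance between log2(value + 1) levels over the 2 libraries. The 3 closest protein-coding genes were COL6A2, a collagen, at 6.43 and 1.74 units, MVP, the major vault protein, at 6.08 and 1.71, and SLC18A3, a vesicular acetylcholine transporter, at 6.62 and 1.80. Their distances on the log2 scale were 0.393, 0.408 and 0.417. With 2 libraries this likeness rests on 2 values per gene, on a scale that may not be per transcript length.

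Promoters were available from RefSeq (GRCh38.p14) for 5 of the 7 members, with 2 starts for FXYD6. That of FXYD5, the member with the highest ratio, is shown as the 250 bases before its start, chr19:35154485-35154734 on the plus strand, with matches to the motifs searched in capitals.

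FXYD5: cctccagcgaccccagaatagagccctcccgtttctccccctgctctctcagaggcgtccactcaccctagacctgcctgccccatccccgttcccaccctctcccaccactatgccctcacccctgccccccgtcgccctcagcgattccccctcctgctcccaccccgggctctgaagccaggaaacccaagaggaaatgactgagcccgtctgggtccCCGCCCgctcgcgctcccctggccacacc

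The motifs were GGGCGG (SP1), ACGTG (HIF core), TGACTCA (AP-1), TGACG (CRE core), TATAAA (the core promoter box), CCAAT (NF-Y), CACGTG (E-box, which contains the HIF core), GTGGGCG (EGR) and CCGGAAG (ETS), on both strands. The FXYD5 promoter held 1 match, to GGGCGG on the minus strand beginning 29 bases before the start, a motif that 42.6% of all 35116 promoter windows of this length hold. The FXYD6 promoter farther upstream held the E-box (6.34% of all) with the HIF core inside it (18.5%), the NF-Y motif (32.0%) and the CRE core (21.2%), and the other FXYD6 promoter held GGGCGG at 2 positions. The ATP1B1 promoter held GGGCGG at 2 positions and 1 match each to the NF-Y motif, the HIF core and the EGR motif (8.53%). The ATP1B3 promoter held GGGCGG at 4 positions and 1 match each to the HIF core, the CRE core and the NF-Y motif. The ATP1B2 promoter held 1 match each to the HIF core and the CRE core. FXYD5 and FXYD6, the members at least 2-fold higher in the SCC library, thus shared only GGGCGG among these motifs, which ATP1B1 and ATP1B3 also held.

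The promoters also differed in composition. The FXYD5 window was 68.0% G or C with 13 CpG dinucleotides, beside medians of 58.0% and 11 over all windows. The ATP1B1 window was 77.6% G or C with 35 CpG, and that of ATP1B3 77.2% with 39, more than in 94.2% and 97.3% of all windows. The ATP1B2 window was 49.2% with 8 CpG, and the FXYD6 windows were 52.0% with 4 and 74.8% with 23. A match or a base composition is a description of these windows, and its part in the levels was not tested.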

How the data were processed

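RNA was measured in 2 libraries, 1 per group, made from total RNA with a stranded kit that selects polyadenylated RNA, per the labels' protocols. The only genome build named, per the submitters' processing notes, is hg38. Neither the aligner nor the counting tool or normalization is given in the sources used here. The deposited values are called normalized per the file headers and were taken as log2 values: none was below 0, the highest were 15.6 and 15.2, and 2 raised to each value minus 1 summed to 983638 and 984120, near a per-million scale with 1 added. Whether they are per transcript length is unknown, so no gene is called more abundant than another and planned shares of the beta and FXYD genes are not given. Sums over markers and the search for genes like FXYD5 take the values as deposited. Without read counts the depth is unknown and no interval was computed.

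Of 53826 lines, 174 carried a locus suffix and were summed per gene ID, which left 53737 genes. Of these, 51248 matched the RefSeq table of GRCh38.p14. A gene was compared when it had at least 1 unit in either library. The ratio is the difference of log2(value + 1), slow-cycling minus non-slow-cycling, with no p-value. The script was tested on simulated data, with changes placed only in genes at higher levels than FXYD5, FXYD6 and ATP1B1. That test does not cover calls at the levels of these 3 genes. Work used Python 3.11.15, pandas 2.3.3, numpy 2.4.6 and matplotlib 3.10.9. The members and lists were chosen with earlier results of these data known. Named are the members, other beta, FXYD and proton pump genes and neighbours, for each other list up to 4 genes with the largest ratio among those with 1 unit in both libraries and any past 2-fold, and the 3 genes most like FXYD5. Neighbours named are a part of that set, and cell type markers are named beside the results they touch. The calcium pump regulators listed at 0 were named after their values were seen. Alternatives were other scalings, pseudocounts, filters and fold thresholds. Some items that the rules name are left out and not reported here.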

Additional observations from a re-analysis of the deposited data

How the results depend on the processing

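With 1 library per group no replicate could be left out, and depth limits every low level to an unknown degree. No paired analysis was possible because each group has 1 library. Of 144 values recomputed for 22 results, 133 kept their direction and side of the threshold, moved by less than 0.14 on the log2 scale (0.5 times the interquartile range of all ratios), or, for counts, stayed within 1.5 times. Some of the 133 could not have moved, because a change of filter leaves the ratio of a single gene as it is. A single gene that no longer entered gave no value and was not counted as moved. The log2 ratio of FXYD5 ran from 1.91 to 2.57, that of FXYD6 from 1.62 to 2.43 and that of ATP1B1 from -0.92 to -0.68. With at least 5 units required in either library, 1 member was at least 2-fold and 1 at least 1.5-fold higher and 0 were 1.5-fold lower, since FXYD6 and ATP1B1 no longer entered. With at least 1 unit required in both libraries, 1 member was at least 2-fold and 1 at least 1.5-fold higher and the members' median was 0.12, since FXYD6 no longer entered. For the ion transport lists, the count at least 1.5-fold higher was 1 once ratios were centred on the all-gene median and 5 with a pseudocount of 0.1, which also gave 1 gene lower. Upper quartile scaling moved ratios by 0.01. Shares of subunits were not run.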
